A study of Mus musculus with 18 samples.

Results

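The response of vehicle-treated bone marrow-derived macrophages (BMDM) to IL-4 was taken from the 3 Veh M[IL-4] and 3 Veh M[0] libraries among the 18 RNA-seq libraries of the series. A gene was tested where 2 or more of the 18 libraries held 10 counts or more of it, which left 14979 of the 55385 genes listed. The macrophages came from bone marrow of female C57BL/6J mice aged 12 weeks, were grown in medium with L-929 supernatant, a source of M-CSF, and were harvested on day 7 of culture. All 6 libraries received vehicle (Veh, 0.1% DMSO) for 24 h. IL-4 at 20 ng/mL then acted for a further 24 h on the cells called M[IL-4], while naïve cells (M[0]) were kept without it. The same change of state was sequenced in cells given 250 µM HC3, which blocks choline uptake, or 5 µM RSM-932a (RSM), which inhibits choline kinase, with 3 libraries per group. The labels name 3 individual mice as the source but do not tie a library to a mouse.

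IL-4 is a type 2 cytokine that binds IL-4 receptor α (*Il4ra*) paired with the common γ chain (*Il2rg*) or with *Il13ra1*. The receptor activates JAK kinases, which phosphorylate STAT6, and STAT6 dimers bind DNA elements made of TTC and GAA separated by 4 bases. In macrophages this pathway is known for alternative activation, a state marked by arginase 1, chitinase-like proteins, the resistin-like protein RELMα and the mannose receptor, and associated with helminth infection, tissue repair and allergy.

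Total counts per library ran from 17457796 to 18911300. Mitochondrial transcripts took 1.83% ± 0.18 of counts in M[0] and 1.95% ± 0.23 in M[IL-4] (SD, n = 3 each; exact two-sided permutation test, p = 0.5), and the 20 genes with most counts took 13.1% ± 0.47 and 12.2% ± 0.33 (p = 0.1, the smallest that 3 against 3 libraries allow). In a principal component analysis of the 6 libraries, PC1 (58.9% of the variance) separated M[IL-4] from M[0], and PC2 (16.2%) set replicate 2 of both groups apart from the others. The counts of calls are therefore also given without these 2 libraries, an alternative chosen after seeing the data. In bulk RNA, a change in the share of cells that express a gene cannot be told apart from a change in RNA per cell.

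IL-4 induced 424 genes (2.83% of those tested) and repressed 573 (3.83%) where a call required an FDR below 0.05 together with a change of 1 or more, up or down, on the log2 scale. Without replicate 2 of both groups the counts were 391 and 479. With the FDR alone, 2417 genes (16.1%) were higher and 2232 (14.9%) lower. When the test itself required a change of more than 2-fold (glmTreat), 201 genes were induced and 113 repressed, a larger loss among the repressed genes. Whether the lost genes lay near the threshold or had large errors was not tested. The median log2 fold change was 1.75 over the induced and −1.42 over the repressed genes, against −0.0078 over all genes tested.

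The upward part of the response reached further than the downward part. At 4-fold or more, 170 genes were induced and 106 repressed. At 8-fold or more these counts were 92 and 27, and at 32-fold or more 37 and 2. The 3 libraries of M[IL-4] lay above all 3 of M[0] for 414 of the induced genes, and below them for 543 of the repressed genes, where 21.1% and 19.7% of all genes tested showed such a separation. Induced genes grew from 1.38% to 4.14% of all counts and repressed genes shrank from 3.63% to 1.39%. The genes were called on these same libraries, so the separation and the shares of counts describe the calls and are no further support for them.

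**Figure D1:**
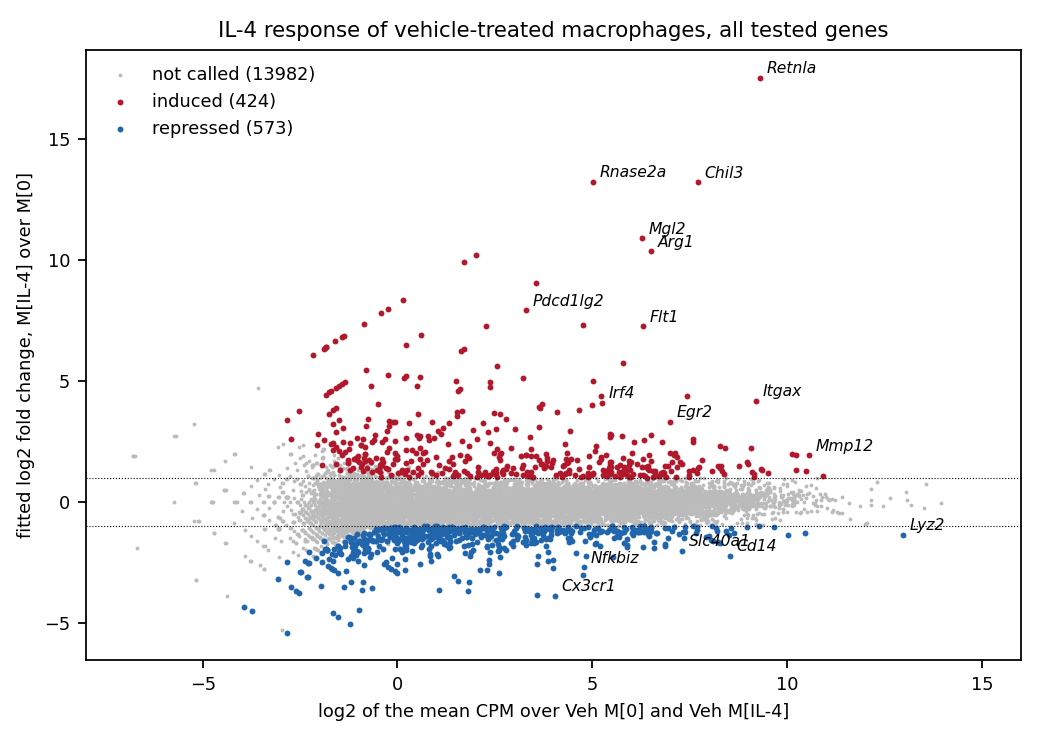
Fitted log2 fold change of M[IL-4] over M[0] in vehicle (y axis) against the log2 mean CPM of both groups (x axis) for all tested genes, with the 424 induced genes in red, the 573 repressed genes in blue and dotted lines at a log2 fold change of 1 and −1. The induced genes reach log2 fold changes above 10, while the lowest labelled repressed gene, *Cx3cr1*, sits at −3.88; fitted values of genes with 0 counts in a group depend on the prior count.

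Among 32 tested markers of alternative activation, a list written with earlier results of these data known, 22 were induced and 2 repressed, with a median log2 fold change of 2.69. Over all genes tested, 2.83% were induced and 3.83% repressed, the shares to set beside this list and those below. *Retnla*, which encodes RELMα (ENSMUSG00000061100, GRCm38 chromosome 16, 48842551 to 48844461), had 0 counts in every M[0] library and 797, 1519 and 1504 CPM in M[IL-4]. It was therefore at least 22630-fold higher, counting 3 possible counts over the M[0] group. *Chil3*, the chitinase-like protein Ym1 (chromosome 3, 106147554 to 106167564), had 0, 0.0587 and 0.0538 CPM in M[0] and 334, 556 and 369 CPM in M[IL-4]. That is a ratio of 11200 with a 95% counting interval from 3100 to 92500. *Arg1*, which splits arginine into ornithine and urea (chromosome 10, 24915221 to 24927484), went from 0.0553, 0.0587 and 0.269 CPM to 193, 150.3 and 201 CPM (log2 fold change 10.37 ± 0.32 SE, FDR = 3.43e-14). These genes went from a few counts or none to more than 150 CPM, and no library of either group came near the other group.

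The lectin gene *Mgl2* (CD301b) rose from 4 counts over the M[0] group to 99.5, 202 and 163 CPM. *Pdcd1lg2*, the ligand PD-L2 that engages PD-1 on T cells, also had 4 counts over M[0] and reached 15.8, 22.7 and 20.3 CPM. *Mrc1*, the mannose receptor, was already expressed at 475, 462 and 433 CPM in M[0] and rose to 1499.5, 1985 and 1865 CPM (log2 fold change 1.96 ± 0.12 SE, FDR = 4.99e-10). So the list held genes that were near 0 before IL-4 and genes that were abundant and rose further. *Flt1*, a VEGF receptor, belonged to the former kind, with 1.05, 1.06 and 0.968 CPM in M[0] and 166, 154 and 153 CPM in M[IL-4] (log2 fold change 7.26 ± 0.17 SE, FDR = 9.7e-16). Smaller rises were measured for the tyrosine kinase *Matk* (log2 fold change 2.47) and for the secreted glycoprotein *Olfm1* (2.04). The ribonuclease *Rnase2a*, at 0 counts in M[0], was at least 1154-fold higher, and *Ear2*, another eosinophil-associated ribonuclease, had a log2 fold change of 5.63. The 2 list members that fell were *Il1rn* and *F13a1*, which encode the IL-1 receptor antagonist and a subunit of coagulation factor XIII.

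**Figure D2:**
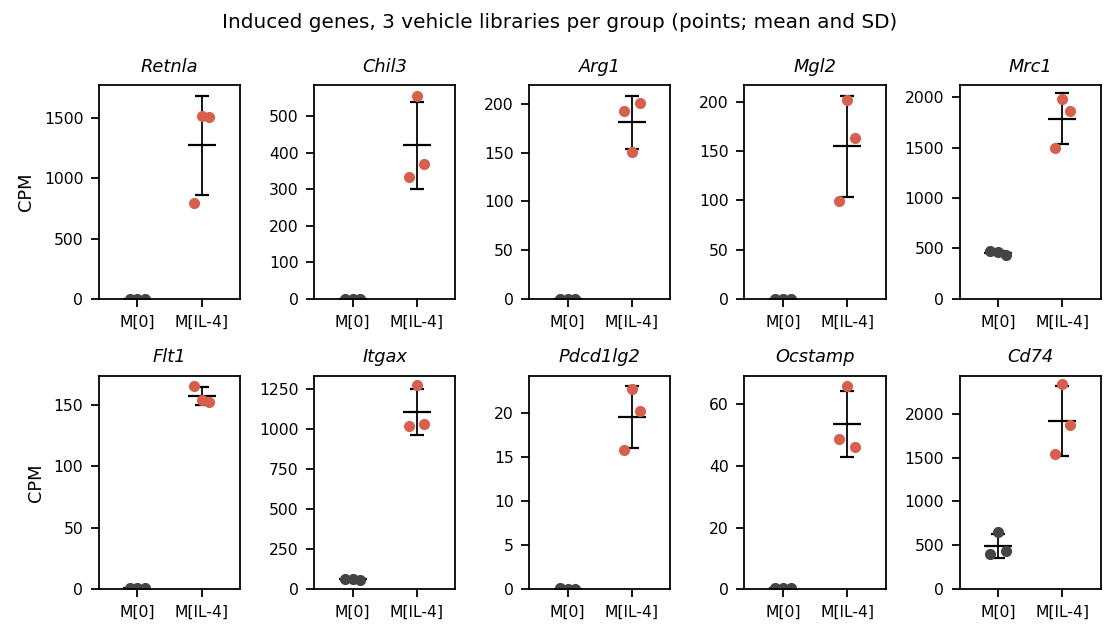
CPM of 10 induced genes (y axes, linear from 0) in the 3 M[0] and 3 M[IL-4] vehicle libraries, with each point a library and the bar and whiskers the mean and SD. In each panel the M[IL-4] points lie above all M[0] points; *Mrc1* and *Cd74* are already expressed in M[0], whereas *Retnla*, *Chil3*, *Arg1* and *Mgl2* start at or near 0.

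Because STAT6 binds TTC, any 4 bases and GAA (the same motif on both strands), promoters of induced genes that were named or on a list were searched for it in RefSeq windows of 250 bases before to 50 after a start (GRCm38.p6). Of 118 such genes, 89 had a window that was searched, and it held a match in 15 and none in 74. The 4 stretches below, from a lectin, an integrin, a checkpoint ligand and RELMα, were chosen from the 15 after their matches were seen. The matching letters are in capitals.

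*Retnla*, chr16:48842444-48842493, + strand: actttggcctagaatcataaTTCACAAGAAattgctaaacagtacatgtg

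*Pdcd1lg2*, chr19:29410817-29410866, + strand: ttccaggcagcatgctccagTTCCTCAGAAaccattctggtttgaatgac

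*Itgax*, chr7:128129403-128129452, + strand: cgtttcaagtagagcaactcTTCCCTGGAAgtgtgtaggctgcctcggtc

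*Clec7a*, chr6:129472881-129472930, − strand: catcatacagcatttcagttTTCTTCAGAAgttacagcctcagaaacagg

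In the *Retnla* window the match begins 145 bases before the start, in that of *Pdcd1lg2* 82 bases and in that of *Itgax* 127 bases. Of all 32851 windows of 300 bases, 6.95% hold the motif. The counts of genes given above cannot be set against this share of windows. A gene can have several windows, and the genes searched were picked from the induced genes. A match is a description of letters, not of binding. Only 283 of the 424 induced genes matched a RefSeq symbol with a window, under 80%, so the check of the motif's share among induced genes is void and no share is given.

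The calls among genes of the receptor and its pathway fell mostly on inhibitors and decoys. Of 29 tested genes of the receptor, JAK-STAT6 and feedback list, 5 were induced and 1 repressed. With the FDR alone, 10 were higher and 8 lower. *Socs1*, which blocks JAK kinases, rose from 1.88, 0.881 and 1.72 CPM to 20.0, 23.1 and 26.3 CPM (log2 fold change 3.94 ± 0.29 SE, FDR = 7.28e-09). *Cish*, another member of that family, rose by a log2 fold change of 4.97 ± 0.25 SE, from 0.32 to 10.1 CPM on average, and *Socs2* by 1.93 ± 0.21 SE. In the same family *Socs3* was lower, with a log2 fold change of −0.76 (FDR = 0.0367), under the fold threshold. *Dok2*, an adaptor that recruits Ras GTPase-activating protein, rose from 64.4 ± 9.04 to 183 ± 14.3 CPM (SD, n = 3 each). The decoy receptor *Il13ra2* had 3 counts over M[0] and 123 over M[IL-4], a ratio of 41.0 with a 95% counting interval from 13.7 to 202.

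In contrast, the signalling chain itself was lower or little changed. *Il4ra* was at 104, 126 and 119.9 CPM in M[0] and 68.6, 63.6 and 61.4 CPM in M[IL-4], a log2 fold change of −0.85 ± 0.07 SE (FDR = 1.67e-08) that passed the FDR but not the fold threshold. *Il13ra1* had −1.10 ± 0.12 SE and was called, but not without replicate 2 of both groups (−0.995). *Stat6* had a log2 fold change of −0.21 ± 0.05 SE (FDR = 0.00273) and *Jak3* of −0.38 ± 0.11 SE. *Il2rg* had 0.54 ± 0.19 SE, with overlapping libraries, and 43.7% of its transcript is near-identical to an overlapping annotated gene, so its counts are uncertain.

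Of 54 tested transcription regulators, 10 were induced and 5 repressed. *Egr2*, a zinc-finger factor, was measured at 21.3, 24.4 and 25 CPM in M[0] and 213, 262 and 225 CPM in M[IL-4] (log2 fold change 3.31 ± 0.10 SE, FDR = 2.6e-14). *Irf4*, an interferon regulatory factor of alternative activation, rose from 3.70, 4.82 and 4.03 CPM to 62.3, 83.1 and 69.4 CPM (log2 fold change 4.10 ± 0.18 SE). *Nfil3* was at 10.9 CPM in each M[0] library and at 67.5, 84.5 and 77.5 CPM in M[IL-4]. In each of these the groups were separated by several times their spread. *Batf3* (log2 fold change 3.87), *Bhlhe40* (2.77), *Klf4* (2.68), the coactivator *Ppargc1b* (2.45), *Myc* (1.52) and *Tfec* (1.33) also rose.

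The lipid-sensing receptor *Pparg* had a log2 fold change of 0.78 ± 0.10 SE (FDR = 1.35e-05), under the fold threshold. *Maf*, a factor of resident macrophages, fell from 499, 514 and 551 CPM to 225, 176 and 202 CPM (log2 fold change −1.38 ± 0.08 SE). The immediate early genes *Nr4a1* (−2.44), *Egr3* (−2.07) and *Fos* (−1.16) fell too. *Egr2* and *Egr3*, which encode close relatives, thus moved in opposite directions.

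C-type lectins split evenly, with 5 of 20 tested members induced and 5 repressed. The induced members included *Mrc1*, *Mgl2*, its paralog *Clec10a* (4.81, 6.40 and 3.93 CPM in M[0] against 27.3, 43.8 and 42.5 CPM in M[IL-4], log2 fold change 2.91 ± 0.19 SE) and *Clec7a*, the β-glucan receptor Dectin-1 (log2 fold change 1.58 ± 0.20 SE). The repressed ones included 3 neighbours on chromosome 6 that encode receptors for fungal and mycobacterial ligands. *Clec4d* fell from 477, 499 and 399 CPM to 140.2, 149 and 148 CPM (log2 fold change −1.65 ± 0.13 SE), and *Clec4e* (Mincle, −2.42) and *Clec4n* (Dectin-2, −2.55) fell as well.

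Of 33 scavenger, Fc and efferocytic receptors and ligands, 3 rose and 5 fell. The Fcγ receptors moved apart. The inhibitory *Fcgr2b* rose from 54.5, 69.7 and 52.8 CPM to 287, 349 and 344 CPM (log2 fold change 2.47 ± 0.14 SE), whereas the high-affinity activating *Fcgr1* fell from 161, 199 and 184 CPM to 43.9, 53.6 and 56.7 CPM (log2 fold change −1.82 ± 0.11 SE). The efferocytosis receptor *Mertk* (−1.24), its ligand *Gas6* (−1.28) and the scavenger receptor *Stab1* (−1.38) were repressed, and the fatty acid and lipoprotein receptor *Cd36* was induced (1.06 ± 0.08 SE). The call of *Cd36* was lost, at a log2 fold change of 0.998 with scaling by library size only, 0.987 without M[IL-4] replicate 2 and 0.949 without replicate 2 of both groups.

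Chemokine ligands moved both ways. Of 25 tested, 7 rose, among them *Ccl2* (13.9, 11.7 and 12.7 CPM against 44.7, 44.1 and 54.7 CPM, log2 fold change 1.90 ± 0.19 SE) and *Ccl7* (log2 fold change 1.95 ± 0.19 SE), which attract monocytes through CCR2. *Ccl22*, a ligand of CCR4, was low in M[0] (0.111, 0.294 and 0.108 CPM) and reached 4.52, 6.68 and 5.43 CPM. *Ccl17*, the other CCR4 ligand, stayed under 1 CPM in every library, with 2 counts over M[0] and 34 over M[IL-4], and *Ccl24*, a ligand of CCR3, reached 0.646, 2.26 and 1.12 CPM. The 6 repressed ligands were all of the CXC class: *Cxcl16* fell from 212, 214 and 219 CPM to 87.7, 83.4 and 84.6 CPM, platelet factor 4 (*Pf4*) had a log2 fold change of −1.42, the neutrophil attractant *Cxcl2* of −2.41 and the interferon-inducible *Cxcl10* of −3.56, and *Cxcl5* and *Ppbp* fell as well.

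Of 12 tested chemokine receptors, 3 rose and 4 fell. *Ccr1* (1.37) and *Ccr2* (1.18) rose, whereas *Cxcr4* (−1.25), *Cxcr3* (−2.26) and *Cx3cr1* were repressed. *Cx3cr1*, the fractalkine receptor of monocytes and macrophages, was at 31.8, 29.5 and 30.9 CPM in M[0] and 3.28, 1.51 and 1.40 CPM in M[IL-4] (log2 fold change −3.88 ± 0.38 SE, FDR = 2.39e-07), the largest fall among called genes whose higher group averaged 50 counts or more per library.

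Past the fold threshold, cytokine receptors rose more often than they fell (8 and 2 of 41 tested), and cytokines and growth factors the reverse (3 and 7 of 39). With the FDR alone, 15 cytokine receptors were higher and 15 lower, with a median log2 fold change of −0.09. Of the cytokines and growth factors, 5 were higher and 17 lower, with a median of −0.32. The difference between these lists was not tested. *Il1rl1*, the IL-33 receptor ST2, rose from 2.88, 2.29 and 2.15 CPM to 24.9, 37.5 and 33.4 CPM (log2 fold change 3.71 ± 0.22 SE). Its neighbours on chromosome 1, *Il1rl2* (2.17) and *Il18rap* (1.96), rose with it. *Il31ra* had 3 counts over M[0] and 507 over M[IL-4], and *Il27ra* had a log2 fold change of 3.00. *Csf2rb*, the shared β chain of the GM-CSF, IL-3 and IL-5 receptors, was abundant in M[0] (407, 503 and 416 CPM) and rose to 1065, 1127 and 836 CPM. Of the VEGF receptors, *Flt1* rose as given above and *Kdr* fell by 1.54 on the log2 scale. Among ligands, *Il1b* fell from 6.47, 5.76 and 3.60 CPM to 0.162, 1.05 and 0.448 CPM, and the growth factor *Bmp2* (−1.79) and the activin subunit *Inhba* (−1.25) fell too, while the EGF receptor ligand *Hbegf* rose by 1.26.

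Of 15 tested MHC class II genes, 7 were induced and 0 repressed (median log2 fold change 0.79). *Cd74*, the invariant chain, was at 402, 650.2 and 434 CPM in M[0] and 1538, 2333 and 1867 CPM in M[IL-4] (log2 fold change 1.95 ± 0.20 SE, FDR = 3.68e-07). *H2-Ab1* was at 55.0, 109 and 77.0 CPM and at 201, 265 and 242 CPM, with log2 fold changes of 1.55 for *H2-Ab1*, 1.41 for *H2-Aa* and 1.29 for *H2-Eb1*. Replicate 2 was the highest library of both groups for these genes, the groups did not overlap, and without replicate 2 of both groups 7 were still called. The peptide-loading genes *H2-DMa* (2.09) and *H2-DMb1* (1.39) and the master regulator *Ciita* (1.78) rose as well; *H2-DMb1* shares 14.2% of its transcript with *H2-DMb2*. Only *Psmb10* was induced among 22 class I genes (4.55%, near the 2.83% over all genes tested). With the FDR alone, 13 of the 22 were higher and 2 lower, against 16.1% and 14.9% of all genes. Their median log2 fold change was 0.34.

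The checkpoint ligand *Cd274* (PD-L1), next to *Pdcd1lg2* on chromosome 19, rose from 27.3, 33.7 and 26.7 CPM to 87.7, 113 and 82.4 CPM (log2 fold change 1.69 ± 0.16 SE). The costimulatory ligands *Icosl* (−2.94) and *Cd86* (−1.82) fell. *Cd80* had a log2 fold change of −0.40 ± 0.15 SE (FDR = 0.0567) and did not pass the test.

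Of 43 tested genes of Toll-like receptors and innate sensing, 7 were repressed and 1 induced. *Cd14*, the coreceptor for lipopolysaccharide, fell from 577, 628 and 627 CPM to 138, 119 and 134 CPM (log2 fold change −2.23 ± 0.09 SE, FDR = 1.35e-12). *Tlr2*, which senses bacterial lipoproteins, fell from 108, 86.3 and 87.4 CPM to 24.7, 29.8 and 22.1 CPM. *Nfkbiz*, an atypical IκB, fell from 57.2, 40.1 and 47.2 CPM to 8.18, 8.42 and 5.60 CPM (log2 fold change −2.70 ± 0.16 SE). In all 3 genes the groups were far apart. *Tlr9* (−1.61) and the inflammasome gene *Nlrp3* (−1.23) fell, while *Tlr4* had a log2 fold change of 0.41 ± 0.10 SE, past the FDR and under the fold threshold, so the components of the lipopolysaccharide receptor did not move as a unit.

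Genes of the type I interferon response were repressed in 14 of 46 tested cases and induced in none (median log2 fold change −0.78), and 10 were repressed without replicate 2 of both groups. *Oas2*, which makes the activator of RNase L, fell from 55.7, 62.0 and 53.2 CPM to 14.6, 15.0 and 19.0 CPM (log2 fold change −1.81 ± 0.18 SE, FDR = 3.13e-07). *Ifitm3*, which restricts virus entry, fell from 168, 203 and 170.2 CPM to 52.2, 64.3 and 76.1 CPM. *Rtp4* (−2.10) and *Slfn5* (−1.20) fell too. Of 14 guanylate-binding proteins and immunity GTPases, 2 fell, and 1 fell without replicate 2 of both groups.

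**Figure D3:**
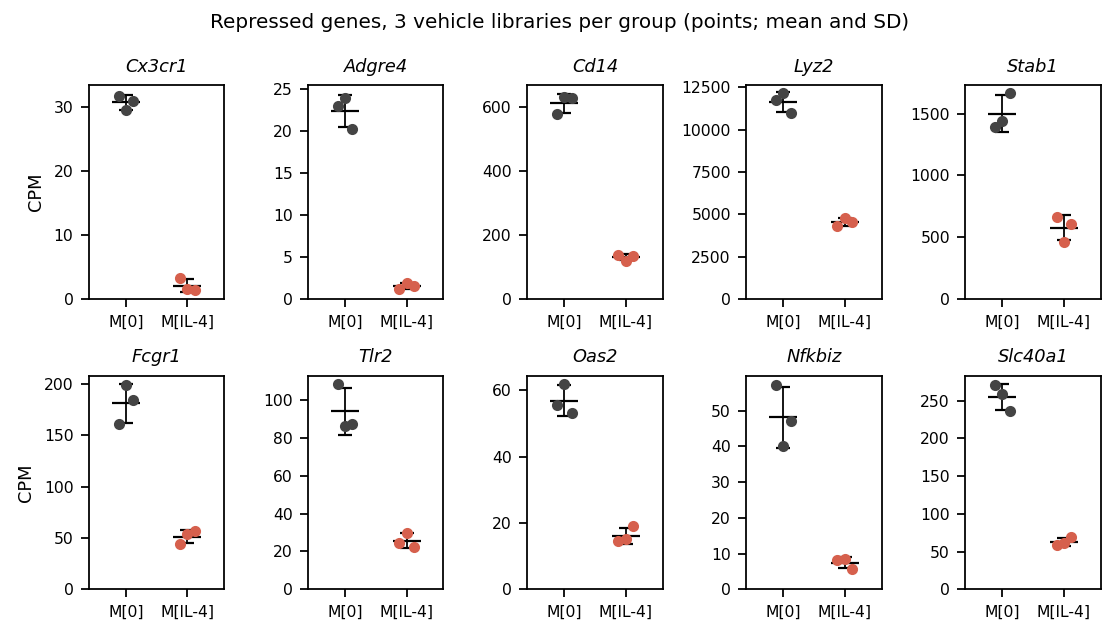
CPM of 10 repressed genes (y axes, linear from 0) in the 3 M[0] and 3 M[IL-4] vehicle libraries, with each point a library and the bar and whiskers the mean and SD. In every panel the M[IL-4] points lie below all M[0] points; *Lyz2* is still at 4283 to 4750 CPM after IL-4, whereas *Cx3cr1* is at 1.40 to 3.28 CPM.

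Arginine and polyamine genes held 5 induced and 1 repressed of 28 tested. Beside *Arg1*, the cationic amino acid transporter *Slc7a2* rose from 20.0, 11.6 and 15.9 CPM to 358, 315 and 317 CPM (log2 fold change 4.38 ± 0.16 SE), and *Gatm*, which makes the creatine precursor guanidinoacetate from arginine, from 55.7, 54.7 and 54.4 CPM to 313, 337 and 340.2 CPM. The transporter *Slc7a1* (1.11) and the antizyme inhibitor *Azin2* (1.72) rose, and the exporter *Slc7a7* fell (−1.30). *Odc1*, the ornithine decarboxylase of polyamine synthesis, had a log2 fold change of 0.46 ± 0.08 SE, under the fold threshold.

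Eicosanoid genes moved both ways, 8 up and 6 down of 30 tested. Cyclooxygenase 1 (*Ptgs1*) rose from 63.8, 58.6 and 63.7 CPM to 197, 251 and 228 CPM (log2 fold change 1.86 ± 0.09 SE), thromboxane synthase (*Tbxas1*) by 1.27 and the phospholipase *Pla2g4a* by 1.21 on the log2 scale. The prostacyclin receptor *Ptgir* (1.98), the prostaglandin E2 receptor *Ptger2* (1.80) and the leukotriene B4 receptor *Ltb4r1* (5.16) also rose. *Hpgd*, which inactivates prostaglandins, fell from 51.6 ± 3.77 to 15.2 ± 1.43 CPM (SD, n = 3 each). The formyl peptide receptors *Fpr1* and *Fpr2* went from 38 and 52 counts over M[0] to 3 and 2 over M[IL-4].

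Few lipid genes passed the fold threshold. Fatty acid genes gave 1 rise and 2 falls among 38 tested, close to the shares over all genes. Sterol genes gave 2 and 2 among 41, although 22 of them passed the FDR upward, against 16.1% of all genes. Without replicate 2 of both groups, 0 fatty acid genes and 1 sterol gene were induced. The cholesterol exporter *Abca1* fell from 367, 376 and 369.9 CPM to 117, 156 and 143 CPM (log2 fold change −1.42 ± 0.14 SE) and the ubiquitin ligase *Mylip*, which degrades the LDL receptor, fell too (−1.30). Both are textbook targets of the sterol receptor LXR. *Ch25h*, which makes 25-hydroxycholesterol, rose by 1.69 from about 1 CPM.

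Of 30 tested genes of choline uptake and phosphatidylcholine synthesis, none was induced and 2, the acyltransferases *Lpcat2* (−1.19) and *Lpcat4*, were repressed. The choline transporter *Slc44a1* was at 158 ± 7.55 CPM in M[0] and 135 ± 12.8 CPM in M[IL-4] (SD, n = 3 each; log2 fold change −0.22 ± 0.09 SE, FDR = 0.0824), and the log2 fold changes of *Slc44a2* and *Flvcr1* were −0.31 and −0.23. Choline kinase α (*Chka*) had −0.09 ± 0.09 SE (FDR = 0.516), *Pcyt1a*, the rate-limiting enzyme of the pathway, −0.01 ± 0.10 SE (FDR = 0.961) and *Chpt1* −0.58 ± 0.10 SE. *Chkb* stayed near 1 CPM or below in every library, and 58.7% of its transcript is shared with annotated neighbours.

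None of 51 respiratory chain and Krebs cycle genes was called, yet 41 passed the FDR upward, against 16.1% of all genes, with a median log2 fold change of 0.35. In glycolysis, *Pfkp* (1.11) and the hexose transporter *Slc2a6* (1.44) rose and *Aldoc* fell among 33 tested. DNA replication genes gave 2 calls of 34, *Rfc5* (1.18) and *Fen1*, with 25 past the FDR upward and a median of 0.49. Mitosis genes gave 0 of 24, with 7 past the FDR upward and a median of 0.39. The share of all genes past the FDR upward was the 16.1% given above.

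Targets of the integrated stress response, the pathway in which ATF4 induces amino acid synthesis and transport, had 8 induced and no repressed genes among 30 tested. Past the FDR upward were 21, against 16.1% of all genes, and the median log2 fold change was 0.51. The serine synthesis gene *Psat1* rose from 33.3, 24.5 and 32.8 CPM to 87.3, 98 and 103 CPM (log2 fold change 1.67 ± 0.16 SE) and asparagine synthetase (*Asns*) from 36.8, 27.1 and 31.5 CPM to 85.7, 66.9 and 81.0 CPM (1.29 ± 0.10 SE). *Chac1* (1.86), the folate enzyme *Mthfd2* (1.31) and *Atf5* (1.10) rose as well. *Phgdh* had a log2 fold change of 1.87, and 84.3% of its transcript is near-identical to an annotated gene, *Gm7901*, so its counts are uncertain.

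Fusion and osteoclast genes had 8 induced and no repressed members among 28 tested. *Ocstamp* and *Dcstamp*, membrane proteins needed for cell fusion, rose from 0.276, 0.411 and 0.323 CPM to 48.8, 66.0 and 46.1 CPM and from 8.79, 15.0 and 10.5 CPM to 48.9, 116 and 71.3 CPM. The proton pump subunit *Atp6v0d2* rose from 201, 211 and 160.2 CPM to 767, 1078 and 842 CPM (log2 fold change 2.23 ± 0.16 SE). *Cdh1* (E-cadherin) had 1 count over M[0] and 165 over M[IL-4]. Only *Atp6v0a1* and *Atp6v0d2* were induced among 42 lysosomal genes (4.76%, near the 2.83% over all genes tested). With the FDR alone, 12 of the 42 were higher and 6 lower, with a median log2 fold change of 0.09.

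Integrins and adhesion genes were divided, 5 up and 6 down of 32 tested. *Itgax* (CD11c) rose from 63.0, 62.7 and 57.2 CPM to 1021, 1274 and 1031 CPM (log2 fold change 4.18 ± 0.14 SE, FDR = 9.92e-14), and *Itgb3*, the integrin β3 chain, by 2.72 on the log2 scale. *Itga6* (−1.46) and *Itga9* (−2.24) fell. Of 51 matrix genes, the proteases *Mmp12* and *Mmp13* (1.66) and the urokinase receptor *Plaur* (1.23) rose, and 6 fell, among them the collagen *Col18a1* (−1.76) and the proteoglycan *Vcan* (from 31.8 to 11.2 CPM).

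Coagulation, complement and purinergic genes had 6 induced and 7 repressed of 40. Coagulation factor X (*F10*) rose from 4.53, 3.47 and 3.12 CPM to 51.1, 72.5 and 57.4 CPM (log2 fold change 4.02 ± 0.20 SE) and its neighbour factor VII (*F7*) by 3.08. The ADP receptor *P2ry1* rose by 2.30; 23.1% of its exons overlap a gene on the other strand. P-selectin (*Selp*) had 1 count over M[0] and 37 over M[IL-4]. In iron handling, the transferrin receptor *Tfrc* rose from 122, 79.4 and 110 CPM to 481, 522 and 563 CPM (log2 fold change 2.33 ± 0.14 SE), and ferroportin (*Slc40a1*), the iron exporter, fell from 270.3, 258 and 236 CPM to 58.1, 61.9 and 68.9 CPM (−2.02 ± 0.11 SE). The zinc transporter *Slc30a4* rose by 1.70.

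**Figure D4:**
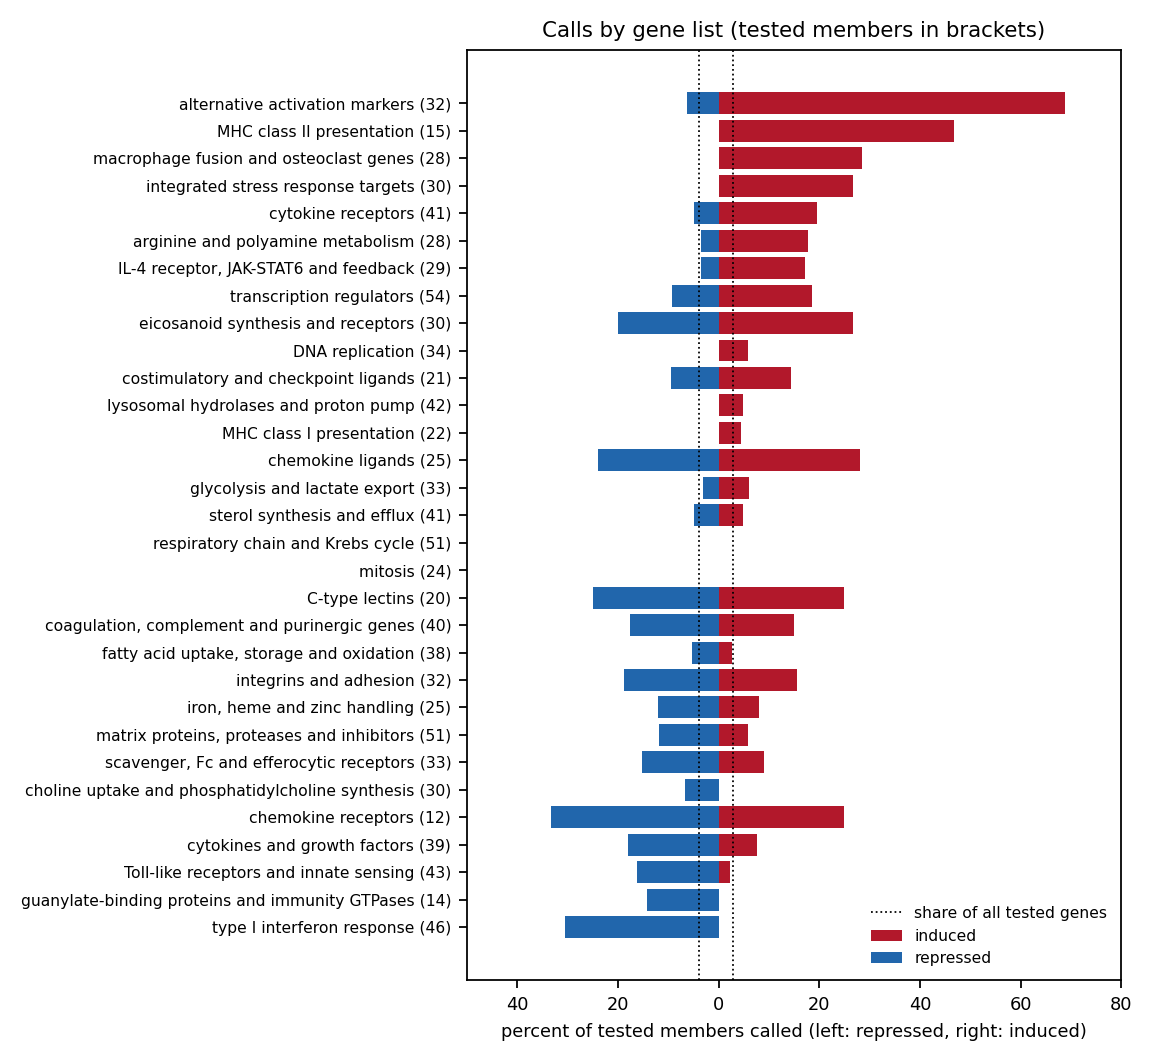
Percent of tested members of each of 31 gene lists that were induced (red, right) or repressed (blue, left) by IL-4 in vehicle, with the number tested in brackets and dotted lines at 2.83% and 3.83%, the shares over all genes tested. Markers of alternative activation have the longest bar to the right (22 of 32), and the type I interferon response is repressed without an induced member (14 of 46).

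In CPM, a scale that does not correct for gene length, the largest rises were those of *Mmp12* (from 629 ± 76.2 to 2395 ± 461 CPM, SD, n = 3), *Cd74*, *Cd36*, *Mrc1*, *Retnla*, the chloride channel protein *Clic4* (from 837 to 2020 CPM), *Itgax* and the proton pump subunit *Atp6v0a1* (from 684 to 1699 CPM). The largest fall was that of *Lyz2*, the macrophage lysozyme, with 10996 to 12143 CPM in M[0] and 4283, 4750 and 4559 CPM in M[IL-4] (log2 fold change −1.36 ± 0.12 SE). The selenium carrier *Selenop* fell from 1990 to 806 CPM, *Stab1* from 1500 to 577 CPM, the signalling adaptor *Pik3ap1* from 1078 to 531 CPM and *Cd14* from 611 to 130 CPM. *Cd93*, the ubiquitin ligase *Wwp1* and *Gas6* completed these 8. The log2 fold changes of *Pik3ap1* (−1.02), *Cd93* (−1.01) and *Wwp1* (−1.04) lie at the threshold. Their calls were lost without M[IL-4] replicate 3 for *Pik3ap1* (−0.987), without M[0] replicate 2 (−0.998) or M[IL-4] replicate 1 (−0.973) for *Cd93*, and without M[0] replicate 1 for *Wwp1* (−0.997).

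Further large rises by fold followed. The claudin *Cldn11* and the potassium channel *Kcnd3*, at 0 counts in M[0], were at least 144-fold and 116-fold higher. The sodium channel *Scn3a* had 2 counts over M[0] and 1247 over M[IL-4]. *Rasgrp1*, a Ras activator, and the apolipoprotein *Apol7c* had log2 fold changes of 6.32 and 6.22. Further large falls were those of the adhesion receptor *Adgre4* (23.1, 23.9 and 20.3 CPM against 1.18, 1.92 and 1.57 CPM), the paired receptors *Pilrb2*, *Pilrb1* and *Pilra* (−3.67, −3.66 and −2.81), *Adgb* (−3.30), *Cd4* (−3.06) with its neighbour *Gpr162* (−3.04), the sialic acid hydroxylase *Cmah* (−2.80), the Fc receptor-like *Fcrl1* (−2.72) and *Gas1* (−2.57). *Pilrb1* and *Pilrb2* share 27.2% and 27.1% of their transcripts at 98% identity or more, so the division of counts between them is uncertain.

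Several called genes were neighbours with no other tested gene between them. Such runs held *Rnase4*, *Ang*, *Rnase6*, *Ang2* and *Rnase2a* on chromosome 14 (log2 fold changes 1.44, 1.45 and 2.67 for *Rnase4*, *Ang* and *Rnase6*), *Ccl2*, *Ccl7*, *Ccl12* and *Ccl8* on chromosome 11, *F7* and *F10* with *Mcf2l* and *Proz* on chromosome 8 and the 3 class II genes on chromosome 17, all induced. Repressed runs held *Ifitm1*, *Ifitm3* and *Ifitm6* on chromosome 7 and *Abca8b*, *Abca9*, *Abca6* and *Abca5* on chromosome 11. *Ang* and *Rnase4* share an exon (10.6% of the *Ang* transcript), and *Ccl12* stayed under 1 CPM.

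The label of the cells was checked on marker genes. All 12 macrophage markers were detected, and 5 of them (*Lyz2*, *Cd14*, *Fcgr1*, *Mertk* and *Cx3cr1*) were repressed, so the summed marker level went from 21900 to 22800 CPM in M[0] to 13100 to 13400 CPM in M[IL-4]. *Csf1r*, the M-CSF receptor, kept 3888, 4006 and 4005 CPM against 3687, 3462 and 3374 CPM (log2 fold change −0.18 ± 0.06 SE), *Adgre1* (F4/80) had −0.40 ± 0.07 SE and *Cd68* 0.00 ± 0.07 SE (FDR = 0.992).

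Among markers of other cells, *Cd3d*, *Cd3g*, *Cd8a*, *Ly6g*, *S100a9*, *Prg2*, *Epx* and *Fcer1a* had 0 counts in all 6 libraries. Summed T and NK cell markers were at 4.25 to 6.47 CPM in M[0] and 0.969 to 1.40 CPM in M[IL-4], of which *Cd4* alone averaged 4.87 and 0.575 CPM. B cell markers were at 32.9 to 40.8 and 16.7 to 21.7 CPM. Dendritic cell markers went from 11.1 to 15.1 CPM to 27.3 to 35.5 CPM, with *Batf3* as the main member, and 7 of the 12 had at most 60 counts over the 6 libraries. Of the 6 tested, 2 were induced and 1 repressed, with a median log2 fold change of −0.57. The eosinophil marker *Siglecf* rose by 2.17, from 3.11 to 4.70 CPM to 9.93 to 26.7 CPM, whereas the other of the 2 tested passed the FDR downward. The endothelial sum rose from 92.2 to 126 CPM to 357 to 407 CPM. Of the 4 tested endothelial markers, 3 were induced, among them *Flt1* and *Vwf* (1.44), with a median log2 fold change of 1.405. The other, *Kdr*, was repressed (−1.54), and *Emcn* and *Cldn5* were at 0. Stromal markers summed to 774 to 1350 CPM in M[0] and 520 to 1170 CPM in M[IL-4], lowest in replicate 2 of each group. Neutrophil markers summed to 75.9 to 94.7 CPM in M[0] and 97.9 to 122 CPM in M[IL-4], with 1 of 4 tested genes induced (*Cxcr2*) and *Ly6g*, *S100a9*, *Elane*, *Ngp* and *Retnlg* at 0. Erythroid and megakaryocyte markers went from 69.1 to 82.9 CPM to 26.9 to 34.8 CPM without overlap, with 3 of 5 tested genes repressed (*Epor* and the platelet chemokines *Pf4* and *Ppbp* given above) and *Hba-a1* and *Hbb-bs* at 0. Most of this sum was *Pf4*, which averaged 72.9 CPM in M[0] and 27.2 CPM in M[IL-4]. Mast cell and basophil markers summed to 3.71 to 5.87 and 2.18 to 3.60 CPM, and eosinophil markers to 49.9 to 61.5 and 50.7 to 53.2 CPM. The part of these cells in any result was not tested.

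The response was also measured in the HC3 and RSM libraries, which share no library with the vehicle comparison. Of the 424 genes induced in vehicle, 198 (46.7%) were called higher under HC3, where 1.82% of all genes were, and 213 (50.2%) under RSM, where 2.45% were. These make up 72.5% of the 273 genes that IL-4 induced under HC3 and 58.0% of the 367 under RSM. Both inhibitors kept the call of 170 genes and neither kept that of 183, and 1 and 2 genes were called in the opposite direction. Of the 573 repressed genes, 163 (28.5%) were called lower under HC3 and 137 (23.9%) under RSM (background 2.14% and 1.81%), 90 under both and 363 under neither. Without replicate 2 of both vehicle groups, 192 and 197 induced genes were also called higher under HC3 and RSM, and 146 and 126 repressed genes lower. A gene not called under an inhibitor is not thereby shown to respond differently.

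**Figure D5:**
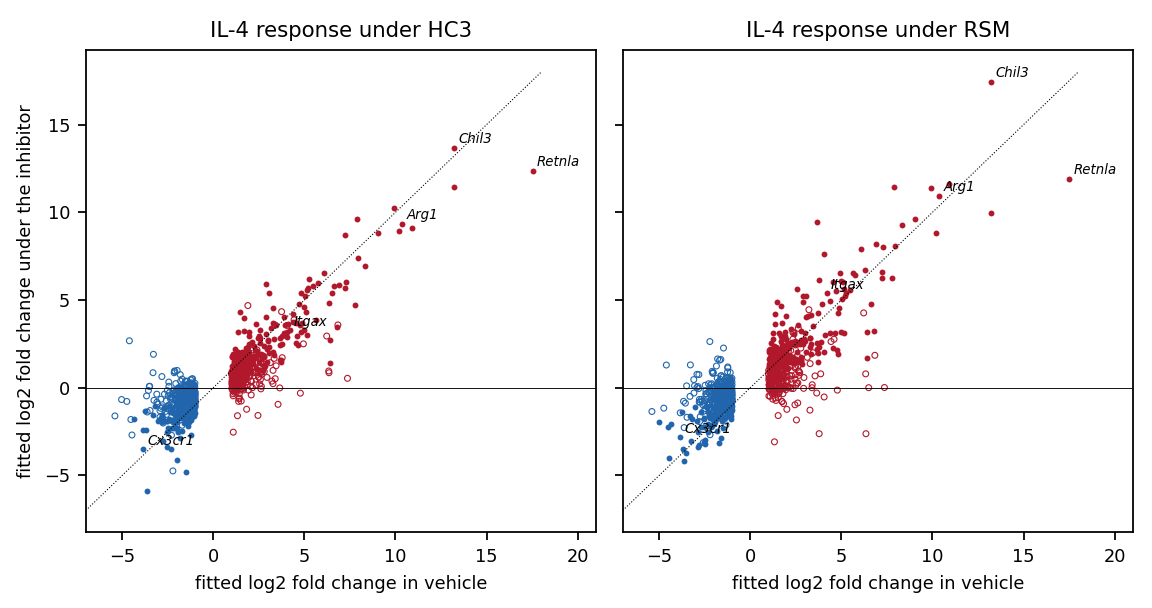
Fitted log2 fold change of M[IL-4] over M[0] under HC3 (left) and RSM (right) on the y axes against that in vehicle on the x axes, for the 424 induced (red) and 573 repressed (blue) genes; filled points were called in the same direction under the inhibitor, open points were not, and the dotted line marks equal responses. *Retnla*, *Chil3*, *Arg1* and *Itgax* rise and *Cx3cr1* falls in both panels, but *Retnla* lies well below the line of equal responses. Fitted values of genes at or near 0 counts depend on the prior count.

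The vehicle calls of each list were also followed in the inhibitor libraries. Of the 22 induced markers of alternative activation, 20 were called under HC3 and 19 under RSM. A call did not mean an equal level. *Retnla* averaged 1273.5 CPM in vehicle M[IL-4] but 36.0 CPM under HC3 and 26.1 CPM under RSM. *Chil3* averaged 420, 546 and 1218 CPM in the same groups. All 5 induced C-type lectins and all 5 induced adhesion genes were called under both inhibitors, as were 7 of 8 cytokine receptors. None of the 14 repressed interferon genes was called under either inhibitor, and the median log2 fold change of that list was −0.78 in vehicle, 0.007 under HC3 and 0.65 under RSM. Likewise, none of the 8 induced stress response targets was called under HC3 or RSM, with list medians of 0.51, 0.03 and −0.06, and none of the 5 repressed scavenger, Fc and efferocytic genes was. These medians describe the change with IL-4 and do not give the level of M[0] cells under an inhibitor. Over all genes induced in vehicle, 40.1% were called under both inhibitors and 43.2% under neither. Over all repressed genes these shares were 15.7% and 63.35%, so most repressed genes of any kind were called under neither. Genes were sorted here by their vehicle call, and no test of a list was made.

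For 24 genes chosen after their values were seen, the difference between responses was read from the interaction term of the fit, which 1.24% of all genes tested passed for HC3 and 2.14% for RSM. *Cd74* responded with a log2 fold change of 1.86 under HC3 and 2.07 under RSM, and its difference from vehicle was −0.09 ± 0.27 SE and 0.12 ± 0.27 SE. Its level was lower under both inhibitors. *Cd74* averaged 207 and 750 CPM in M[0] and M[IL-4] under HC3, and 54.3 and 228 CPM under RSM. In vehicle it averaged 495 and 1912 CPM. *Socs1* (3.59 and 4.75) and *Cx3cr1* (−3.51 and −2.82) did not pass the test of a difference either, with wide errors for *Cx3cr1*. *Egr2* (2.80 under HC3 and 4.13 under RSM), *Cd14* (−1.82 and −1.71) and *Stab1* (−0.65 and −0.44) differed from vehicle by less than the fold threshold. *Mrc1* rose by 2.98 under HC3 and 2.75 under RSM, and *Clec10a* by 4.01 and 4.89. *Klf4* rose by 0.90 under HC3 and 0.93 under RSM, *Nfil3* by 1.26 and by 1.347, and *Socs2* had −0.14 and 0.13.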

How the data were processed

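RNA-seq counts of 18 BMDM libraries were used, of which 6 vehicle libraries carry the comparison and the others entered the fit. The authors deposited raw, unnormalized counts, with Ensembl genes as rows. The authors selected poly-A RNA, used fastp for trimming, STAR for alignment to GRCm38, Picard for marking duplicates and featureCounts (Subread) for counting on exons, as named in the methods and the submitters' processing notes, which also name edgeR. The annotation release and strand setting are not given in the sources used here, so reads from overlapping genes cannot be told apart. No column was left unused.

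Symbols and positions came from GENCODE M21 (GRCm38) and matched 55144 of 55385 genes. Counts were fitted with edgeR 4.0.16 under R 4.3.3 (glmQLFit and glmQLFTest after TMM scaling, a coefficient per group, no block), after dropping genes that reached 10 counts in fewer than 2 of the 18 libraries. A call required a Benjamini-Hochberg FDR below 0.05 together with a change of 1 or more on the log2 scale, the thresholds of the study. CPM were scaled by TMM. At 17457796 to 18911300 counts per library, 3 counts in 1 library are 0.159 to 0.172 CPM. Floors and counting intervals (95%) cover counting error only. Pairs of vehicle replicates had a chi-square of 7.16 to 20.3 per gene, where counting noise would give about 1, so each library was counted on its own. Single library measures were compared by exact two-sided permutation tests.

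Members, lists and tests were chosen with earlier results of these data known. Named genes are the 15 largest rises and falls among called genes that moved the same way in every same-numbered pair and averaged 50 counts or more in the higher group, the 8 largest rises and falls in CPM, genes at 0 in a group, neighbouring called genes (runs of at least 3), and members of 31 gene lists and 10 marker lists written from general knowledge. Alternatives were DESeq2 1.42.0, scaling by library size only, no filter, filterByExpr, a replicate block, only the compared groups, glmTreat and each vehicle library left out. The steps were tested on simulated data. Near-identical transcripts (98% over 100 bases) were found with blastn 2.17.0, promoter windows came from RefSeq, and figures were drawn with matplotlib 3.10.9.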

Additional observations from a re-analysis of the deposited data

Results flagged for a closer look

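The following IL-4 responses differed between inhibitor-treated and vehicle-treated cells by the interaction term of the edgeR fit (FDR under 0.05 and a difference of at least 1 on the log2 scale), where 1.24% of all genes tested did so for HC3 and 2.14% for RSM. The 24 genes looked at were chosen after their values were seen, and most were chosen from the vehicle calls, whose libraries also enter the difference. Each value is the log2 fold change under the inhibitor minus that in vehicle.

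The rise was larger under HC3 for *Mrc1* (1.01), *Clec10a* (1.10) and *Ch25h* (2.27). Under RSM it was larger for *Itgax* (1.20), *Clec10a* (1.97), *Ccl7* (2.17) and *Ch25h* (2.97). A larger rise was not always a higher level. *Itgax* averaged 2.15 CPM in M[0] and 90.2 CPM in M[IL-4] under RSM, against 61.0 and 1109 CPM in vehicle. *Mrc1* averaged 134 and 1057.5 CPM under HC3, against 457 and 1783 CPM in vehicle. The rise was smaller for *Socs2* (−2.06 under HC3 and −1.80 under RSM), *Cish* (−1.66 and −1.80), *Klf4* (−1.78 and −1.75), *Nfil3* (−1.55 and −1.46), *Il1rl1* (−2.27 and −2.25) and *F10* (−1.10 and −1.99), and for *Irf4* under RSM (−1.09). The stress response targets *Phgdh* (−1.53 and −1.80) and *Asns* (−1.06 and −1.39) responded less under both inhibitors. The vehicle repression of *Fcgr1* (1.58 and 1.69), *Oas2* (1.49 and 2.35) and *Ifitm3* (1.05 and 1.37) was smaller or absent under both. *Bmp2* differed by 2.17 under HC3 and 3.43 under RSM, and its log2 fold change was −1.79 in vehicle, 0.37 under HC3 and 1.64 under RSM.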

How the results depend on the processing

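The count of induced genes was 412 with DESeq2, 394 with scaling by library size only, 456 without a count filter (29054 genes), 408 with filterByExpr (14466 genes), 400 in a fit of only the compared groups and 389 to 420 when a vehicle library was left out. The count of repressed genes was 549, 647, 595, 561 and 504 in these settings and 476 to 613 when a library was left out. With glmTreat, which tests for a change beyond 2-fold, 201 genes were induced and 113 repressed, and of the genes it called in vehicle 87 and 103 were also called higher under HC3 and RSM and 18 and 16 lower. Of 163 named genes called in vehicle, 158 kept their call in each setting other than glmTreat, and 125 kept it with glmTreat. Among those that glmTreat did not call were *Stab1*, *Mertk*, *Fos*, *Tfec*, *Ccr1*, *Ccr2*, *Cxcr4*, *Csf2rb*, *H2-Aa*, *H2-Ab1*, *H2-Eb1*, *Ciita*, *Cd86*, *Slfn5*, *Slc7a1*, *Slc7a7*, *Ch25h*, *Lpcat2*, *Pfkp*, *Ccl12* and *Ccl17*. The calls lost elsewhere were those of *Cd36*, *Cd93*, *Wwp1*, *Pik3ap1* and *Il13ra1*.

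Same-numbered vehicle libraries correlated in their deviations by 0.0411, 0.264 and 0.105, and different-numbered ones by −0.233 to 0.179. The highest value was that of replicate 2 with replicate 2, as it was under HC3 (0.26) and RSM (0.278). Whether the numbers pair libraries was not settled, and the main fit had no block because the labels do not tie a library to a mouse. With a replicate block, 444 genes were induced and 646 repressed, and with the block in a fit of only the compared groups 414 and 571. No named gene lost its call under the block.

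Reversals were limited to genes near 0. *Cd68* had −0.0532 with scaling by library size, −0.00011 with filterByExpr, −0.0124 without replicate 2 of both groups and −0.0444 to 0.0537 with a library left out. *Pcyt1a* had 0.00698 without a filter and −0.142 to 0.0839 with a library left out, and *Chkb* −0.503 to 0.128. The cause of these changes was not tested. Promoter shares are not given in any setting, since too few genes matched a window. At this depth, genes of a few counts, such as *Ccl17*, *Ccl12* and *Selp*, are the least certain.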
